A study of Caenorhabditis elegans with 9 samples.

Results

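Genes for the activation of fatty acids and for beta-oxidation were compared in 4 Caenorhabditis elegans strains that differ in DNA repair. The members are the probe sets whose only platform gene symbol begins with acs, cpt, acdh, ech, acox, maoc, kat or dhs followed by a number, without acdh-1 and ech-6. This rule rests on the symbols alone and uses no measured value, though members were chosen with earlier results of these data known. It gave 100 probe sets of 86 genes out of the 22548 probe sets that are not array controls: 29 for 23 acs genes, 7 for 6 cpt genes, 13 for 11 acdh genes, 11 for 9 ech genes, 5 for 5 acox genes, 1 each for maoc-1 and kat-1, and 33 for 30 dhs genes. Another 2 probe sets, shared by kat-1 with T02G5.4 and by acox-1.3 with acox-1.4, were left out because they report several genes. Of the 89 genes with such names in the RefSeq gene table, 3 (acdh-10, acox-1.3 and acox-1.4) had no probe set of their own. In 41 of the 100 cases the probe set name ends in _s_at and in 1 in _x_at, endings that mark probes shared by several transcripts or able to bind others, so near-identical paralogs may contribute to those values.

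To be burned, a fatty acid is first joined to coenzyme A by an acyl-CoA synthetase (acs), and carnitine palmitoyltransferases (cpt) carry the long-chain acyl group into mitochondria. Each round of beta-oxidation then uses a dehydrogenase (acdh) or, in peroxisomes, an oxidase (acox), a hydratase (ech, maoc-1), a hydroxyacyl-CoA dehydrogenase such as dhs-28, and a thiolase such as kat-1. In the worm the peroxisomal branch also shortens the side chains of ascaroside pheromones, and acs-2 is known as a gene switched on by fasting through the nuclear receptor NHR-49. The dhs symbols denote short-chain dehydrogenases, a broad superfamily, and most of them have no assigned place in beta-oxidation.

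The strains were wild type N2 (Bristol), nth-1(ok724), which lacks the DNA glycosylase NTH-1 of base excision repair, xpa-1(ok698), which lacks the damage-binding protein XPA-1 of nucleotide excision repair, and the double mutant nth-1;xpa-1 made from both alleles. RNA came from mixed-stage whole worms grown on plates seeded with E. coli HT115(DE3), and was hybridized to Affymetrix C. elegans arrays. The methods state that worms were collected once the plates had been cleared of food, while the study's results call the animals well fed. The strain nth-1 has 3 arrays in the deposited table and each other strain 2, although the methods give 3 replicates per strain, and the small number of arrays limits the precision. In bulk samples of whole worms, fewer cells of a type and less RNA per cell cannot be told apart.

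Values are log2 expression, and a difference of 1 is a doubling on that scale. The means of the member probe sets ran from 4.2 to 11.64, and 84 of 100 lay above the 40th percentile of all probe sets. Replicates correlated at r = 0.98 to 0.994 over all probe sets, except that nth-1 replicate 3 reached 0.95 and 0.952 with the other nth-1 arrays. The xpa-1 transcript averaged 10.6 in N2, 6.12 in xpa-1 and 5.91 in the double mutant (limma adjusted p = 0.00019 and 0.00026), whereas the probe set of nth-1, whose place relative to the deletion is not given in the sources used here, checks nothing. The hybridization control BioC, a transcript added to every sample, was at 8.04 to 8.28 in all nth-1 arrays and xpa-1 replicate 2 and at 9.54 to 9.99 in the other 5 arrays. This grouping was found in the data and is not a labelled batch. It divides nth-1 from N2 completely, so values with it as a block rest on the difference between the xpa-1 arrays. The block ended 11 of the 15 calls of members in nth-1 against N2, 5 of 11 in xpa-1 and 0 of 17 in the double mutant, and its effect is given below as values or as counts of calls ended. All N2 and nth-1;xpa-1 arrays are in the set with higher BioC. The block therefore leaves the differences between these 2 strains unchanged, and the 0 of 17 is no check of them. Of the single mutant arrays only xpa-1 replicate 1 is in their set. With the block, the differences of xpa-1 from these 2 strains are thus those of that array alone. A call of xpa-1 against them that held with the block is therefore no replicated check.

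Against N2, the members of nth-1 and xpa-1 were called up more often than down, which did not hold with BioC as a block, and those of the double mutant more often down than up. Calls are limma's, with Benjamini-Hochberg adjustment over all 22548 probe sets and a threshold of 0.05. In nth-1, 11 of 100 member probe sets rose and 4 fell, where 3.06% of all probe sets rose and 6.98% fell. In xpa-1, 8 rose and 3 fell (all probe sets 3.89% and 6.65%). In nth-1;xpa-1, 5 rose and 12 fell (all probe sets 4.24% and 4.4%). The median difference from N2 over the members was 0.18, 0.16 and -0.15 in the same order, beside -0.05, -0.04 and 0.05 over all probe sets. By overlap of single arrays, 32 members lay above all N2 arrays in every nth-1 array and 13 below (all probe sets 18.5% and 26%), 38 and 22 in xpa-1 (28.8% and 34.4%), and 27 and 53 in the double mutant (37.9% and 31.1%). The remaining 73 probe sets passed in none of these comparisons, which share the N2 arrays. With BioC as a block, 2 members were called up and 2 down in nth-1, 3 up and 5 down in xpa-1, and 5 up and 15 down in the double mutant, and the member median was -0.11, 0.00 and -0.15. Of all 22548 probe sets that block called 26 up and 71 down in nth-1, 227 and 530 in xpa-1, and 998 and 1004 in the double mutant. Their medians were -0.053, -0.025 and 0.05. Single arrays mattered as much, since leaving out an N2 array leaves that strain with 1. Of the named calls described below, only those of acs-2 held without each single array in nth-1 (2 of 14 probe sets) and in xpa-1 (2 of 11), and those of acs-2 (192195_at), acs-16 and cpt-5 in the double mutant (3 of 15). Without either N2 array 12, 9 and 11 of them were lost, all those of acs-11, acs-19, dhs-23 and cpt-4 among them.

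The acyl-CoA synthetase gene acs-2 was the member with the largest rise in both single mutants, and it was raised less in the double mutant. On its brighter probe set (174675_at) the log2 values were 9.80 and 10.05 in N2. They were 12.53, 12.32 and 12.11 in nth-1, 12.55 and 12.84 in xpa-1, and 11.37 and 11.11 in nth-1;xpa-1. Every mutant array lay above both N2 arrays, and the double mutant arrays lay between N2 and the single mutants without overlap. The differences from N2 were 2.40 (standard error 0.17, limma adjusted p = 0.0002) in nth-1, 2.77 (0.19, adjusted p = 0.00019) in xpa-1 and 1.31 (0.19, adjusted p = 0.0073) in nth-1;xpa-1. As ratios of mean unlogged values these are 5.28-fold, 6.83-fold and 2.49-fold. The double mutant was below nth-1 by a log2 difference of -1.08 (adjusted p = 0.0024) and below xpa-1 by -1.46 (adjusted p = 0.0011). With BioC as a block the difference from nth-1 was -0.79 (adjusted p = 0.17). The call against xpa-1, there on xpa-1 replicate 1 alone, held. So did the calls of both single mutants against N2, while the block cannot check the double mutant against N2. The call in the double mutant against N2 was lost when either N2 array or either double mutant array was left out (highest adjusted p = 0.088).

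The second acs-2 probe set (192195_at) gave the same order with larger differences. It read 7.69 and 7.70 in N2, 12.66, 12.36 and 12.23 in nth-1, 12.66 and 13.22 in xpa-1, and 9.86 and 9.64 in the double mutant. The log2 differences from N2 were 4.72 (standard error 0.21, limma adjusted p = 2.2e-05), 5.25 (0.23, adjusted p = 5e-05) and 2.06 (0.23, adjusted p = 0.0025), or 26.6-fold, 38.6-fold and 4.17-fold on the linear scale. Its calls passed in every alternative fit and without any 1 array, with a highest adjusted p of 0.041. The 2 probe sets thus disagree on the size of the change, but not on its order over strains.

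**Figure D1:**
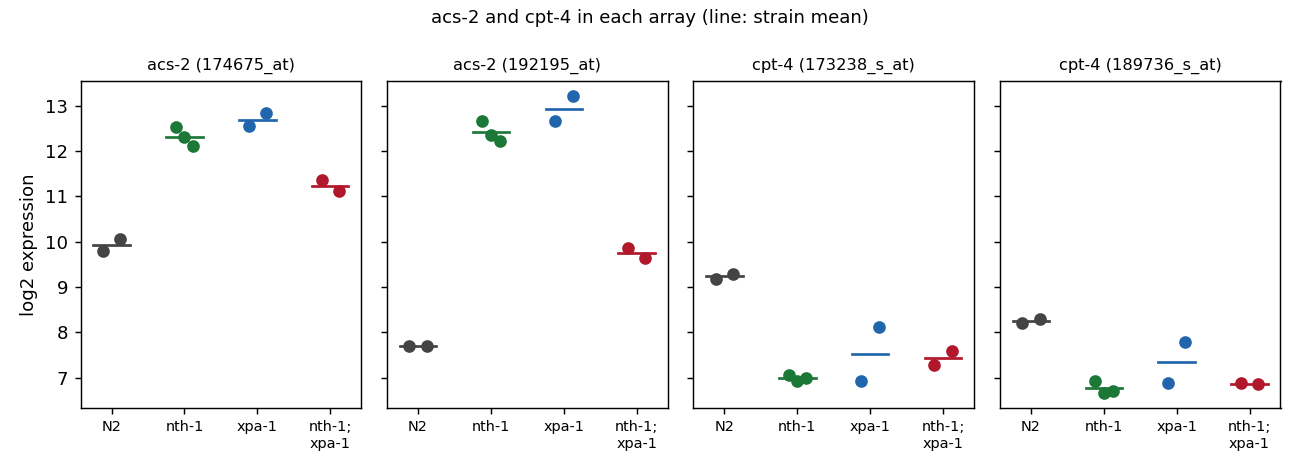
Log2 expression of acs-2 and cpt-4 in each of the 9 arrays, 1 panel per probe set, with a line at each strain's mean. Both acs-2 probe sets are highest in the single mutants and intermediate in nth-1;xpa-1, while the cpt-4 probe sets are highest in N2 and 1 xpa-1 array (8.12 and 7.79) lies above the other mutant arrays.

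Few of its paralogs were called against N2. Apart from acs-2, only acs-11 and acs-19 rose among the other acs genes in nth-1 or xpa-1. In each strain limma called 4 of 29 acs probe sets up, 2 of them of acs-2, and none down. Of all probe sets 3.06% rose and 6.98% fell in nth-1, and 3.89% and 6.65% in xpa-1. At an unadjusted p under 0.05, not counted over all probe sets, 8 and 9 acs probe sets were higher and 3 and 2 lower. The gene acs-19, an ortholog of acetyl-CoA synthetase, read 10.62 and 10.93 in N2, 12.28, 11.87 and 12.40 in nth-1, 12.03 and 12.69 in xpa-1, and 10.66 and 10.50 in the double mutant. The single mutants were above N2 by 1.41 (standard error 0.23, limma adjusted p = 0.0083) and 1.58 (0.25, adjusted p = 0.0081) in log2, whereas the double mutant overlapped N2 with a difference of -0.20 (adjusted p = 0.68). acs-11 rose by 1.34 (adjusted p = 0.022) in nth-1 and by 1.31 (adjusted p = 0.034) in xpa-1, and its difference in the double mutant was -0.11 (adjusted p = 0.87). With BioC as a block these calls ended for acs-11 in both strains (adjusted p = 0.78 and 0.14) and for acs-19 in nth-1 (adjusted p = 0.52).

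Another synthetase, acs-16, was called in the double mutant and in neither single mutant. It read 8.18 and 8.29 in N2, 8.1, 8.26 and 8.37 in nth-1, 8.09 and 8.12 in xpa-1, and 10.36 and 10.18 in nth-1;xpa-1. The 7 arrays of the other strains spanned less than 0.3 on the log2 scale and both double mutant arrays stood above all of them. The difference from N2 was 2.03 (standard error 0.19, limma adjusted p = 0.0011), against 0.01 (adjusted p = 0.98) for nth-1 and -0.13 (adjusted p = 0.70) for xpa-1. This call passed in every alternative and without any 1 array. acs-22, a member of the fatty acid transport protein family, and acs-7, known for its part in ascaroside assembly, fell in the double mutant by -1.46 (adjusted p = 0.037) and -1.43 (adjusted p = 0.018) against N2, but both calls were lost without any 1 of the N2 or double mutant arrays.

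The other acs genes passed in no comparison with N2 in the fit without a block. acs-3, which limits intestinal fat uptake, stood lowest relative to N2, at -0.85 (adjusted p = 0.077) in nth-1 and at -1.03 (adjusted p = 0.055) for xpa-1. With BioC as a block it was at -1.78 (adjusted p = 0.097) in nth-1 and passed in xpa-1 (-1.50, adjusted p = 0.023). acs-1, which activates branched-chain fatty acids, has probe sets with differences of -0.06 and 0.52 in nth-1 and 0.39 and 0.90 in xpa-1. In acs-6 and acs-18 the replicates of a single mutant disagreed, with acs-18 at 6.69 and 6.57 in N2, 7.47, 7.22 and 6.31 in nth-1 and 6.40 and 7.76 in xpa-1. For both genes nth-1 replicate 3 and xpa-1 replicate 1 read below N2 or close to it, and the other single mutant arrays above it.

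**Figure D2:**
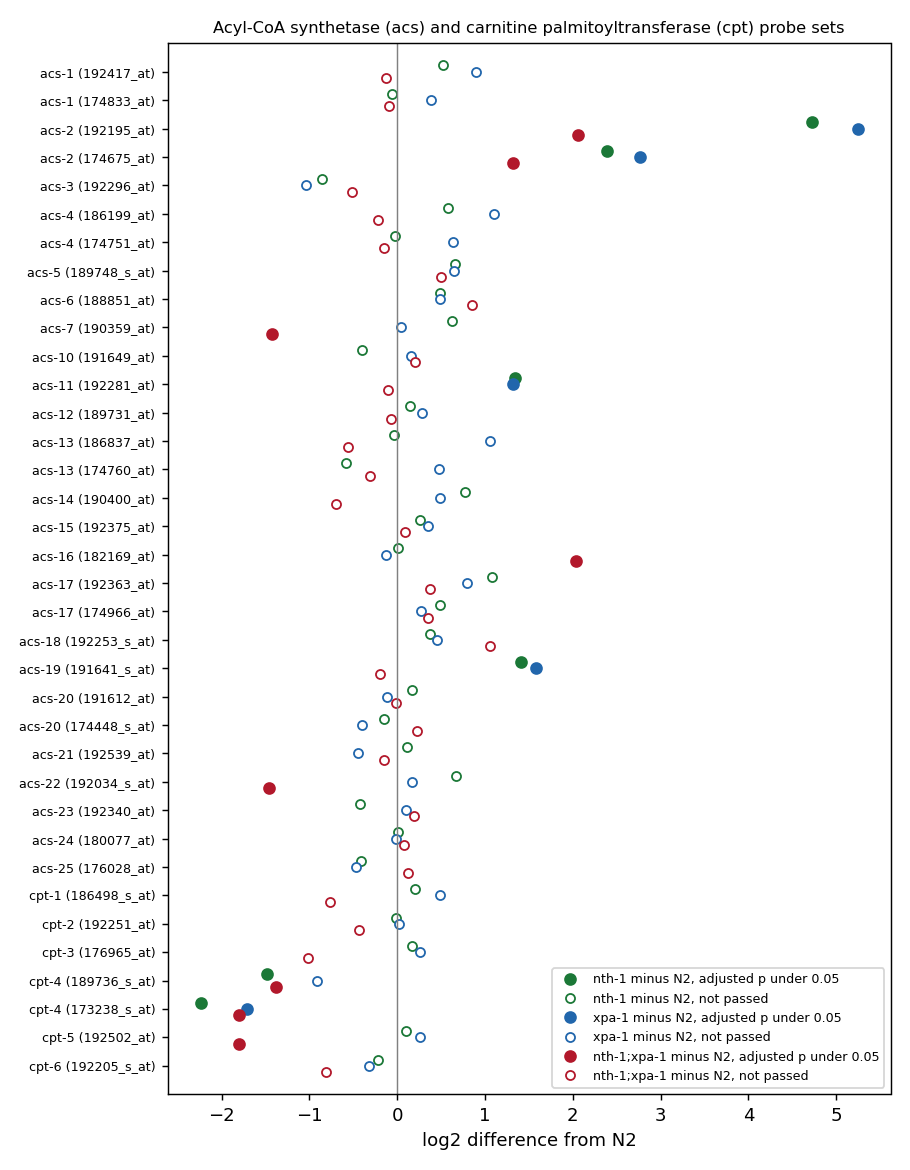
Log2 difference of every acs and cpt probe set in the 3 mutants from N2, with filled points where limma's adjusted p is under 0.05. acs-2 stands to the right in all 3 strains (1.31 to 5.25), acs-16 reaches 2.03 in the double mutant, and cpt-4 stands to the left (-2.24 to -0.91).

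The change of acs-2 (174675_at) was then set against that of each of 27 probe sets of 22 other acs genes, as the difference of log2 values within each array. acs-2 had moved up by more than every one of the 27 in nth-1 (smallest excess 0.99 over acs-19, standard error 0.25, adjusted p = 0.011) and in xpa-1 (1.19 over acs-19, standard error 0.27, adjusted p = 0.0079). This does not single out the synthetases, since acs-2 also exceeded 97.8% and 98.5% of all other probe sets by the same test. It ranked 38 and 21 among all 22548 probe sets by the size of its rise. In the double mutant it exceeded 20 of 27, close to the 74.7% over all other probe sets, was itself exceeded by acs-16 (difference -0.72, adjusted p = 0.041), and for the other 6 the difference did not pass, with values of 0.26 for acs-18 to 1.46 for acs-21. Against the median of its paralogs in each array, acs-2 rose by 1.69, 2.12 and 1.57, and an exact permutation test over arrays gave two-sided p = 0.2, 0.333 and 0.333, where the smallest p these designs allow is 0.1 for 3 against 2 arrays and 0.333 for 2 against 2.

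Among the carnitine palmitoyltransferases, cpt-4 was lower in all mutants and cpt-5 in the double mutant. On its brighter probe set (173238_s_at) cpt-4 read 9.18 and 9.29 in N2, 7.06, 6.93 and 7 in nth-1, 6.93 and 8.12 in xpa-1, and 7.28 and 7.58 in nth-1;xpa-1. All mutant arrays lay below N2, and the xpa-1 arrays differed from each other by 1.19. The log2 differences were -2.24 (standard error 0.30, limma adjusted p = 0.0038), -1.71 (0.33, adjusted p = 0.016) and -1.80 (0.33, adjusted p = 0.016). The second probe set (189736_s_at), at 8.20 and 8.29 in N2, gave -1.48 (adjusted p = 0.008), -0.91 (adjusted p = 0.061) and -1.39 (adjusted p = 0.018). Unlike acs-2, without a block cpt-4 did not differ between the double and either single mutant beyond the spread (0.43, adjusted p = 0.29, against nth-1 and -0.10, adjusted p = 0.85, against xpa-1). Under the BioC block, however, its brighter probe set passed against nth-1, with the double mutant higher by 1.62 (adjusted p = 0.031). Against xpa-1 it did not (0.50, adjusted p = 0.11), nor did the second probe set against nth-1 (1.01, adjusted p = 0.066). With BioC as a block the differences of the brighter probe set grew to -3.43 in nth-1 and -2.30 in xpa-1, while leaving out either N2 array, or for nth-1;xpa-1 either of its own arrays, ended each call against N2 (highest adjusted p = 0.059 in nth-1, 0.12 in xpa-1 and 0.14 in nth-1;xpa-1).

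No other cpt gene was called in a single mutant. In the double mutant the cpt median was -1.01, beside 0.05 over all probe sets. There limma called 3 of the 7 cpt probe sets lower than N2, those of cpt-4 and cpt-5 (all probe sets 4.4%). At an unadjusted p under 0.05 it was 6 of the 7, a threshold that was not counted over all probe sets. cpt-5 read 6.92 and 7.17 in N2, 7.35, 7.28 and 6.82 in nth-1, 7.27 and 7.33 in xpa-1, and 5.17 and 5.31 in nth-1;xpa-1. It thus stood apart in the double mutant alone, with a difference of -1.80 from N2 (standard error 0.20, limma adjusted p = 0.0024), a call that held in every alternative that tested it. cpt-2 ran from 10.25 to 11.08 and cpt-6 from 8.58 to 9.44 over the 9 arrays, and neither passed in any comparison without a block. cpt-1 and cpt-3, close to N2 in the single mutants (0.17 to 0.49), were at -0.77 (adjusted p = 0.14) and -1.01 (adjusted p = 0.084) in the double mutant. With BioC as a block, cpt-3 (adjusted p = 0.02) and cpt-6 (-0.81, adjusted p = 0.036) were called lower than N2 in the double mutant.

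The fall of cpt-4 exceeded that of all 5 paralogs in nth-1 (differences of -2.45 to -2.02, highest adjusted p = 0.017), where the same held against 94.8% of all probe sets. In xpa-1 it exceeded 4 of 5, with cpt-6 at -1.39 (standard error 0.60, adjusted p = 0.08), and 72% of all probe sets. For the double mutant it exceeded 3 of 5 and 82.6% of all probe sets, and its difference from cpt-5 was 0.00 (standard error 0.41, adjusted p = 1). Without N2 replicate 1 none of the 5 passed in xpa-1, and without nth-1;xpa-1 replicate 1 none passed in the double mutant. Against the paralog median in each array, cpt-4 fell by 2.17, 1.51 and 1.06, with exact permutation two-sided p = 0.1, 0.333 and 0.333, which are the smallest p-values these designs allow.

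In the oxidation step, most acdh and acox genes did not pass against N2. acdh-12, an ortholog of the very-long-chain acyl-CoA dehydrogenase, read 9.98 and 10.04 in N2, 11.41, 11.06 and 10.93 in nth-1, 10.63 and 11.46 in xpa-1, and 9.77 and 9.18 in nth-1;xpa-1. Its rise was 1.12 (standard error 0.29, limma adjusted p = 0.042) in nth-1, with 1.03 (adjusted p = 0.069) in xpa-1 and -0.54 (adjusted p = 0.32) in the double mutant, and the nth-1 call ended with BioC as a block (adjusted p = 0.88). acdh-4 was called only in the double mutant, at 1.14 (adjusted p = 0.035), with 8.83 and 8.88 against 7.78 and 7.65 in N2, and its differences were 0.33 in nth-1 and 0.18 in xpa-1 without passing. The acdh-7 probe sets ran from 10.60 to 11.53 and from 8.78 to 9.88 over the arrays and passed nowhere. acox-1.5, a peroxisomal acyl-CoA oxidase gene, read 11.09 and 11.32 in N2 and 9.02 and 8.77 in the double mutant, a fall of -2.31 (adjusted p = 0.013), with -0.26 in nth-1 and -0.60 in xpa-1. acox-1.1, a peroxisomal oxidase known to act in ascaroside synthesis, differed from N2 by -0.54 (adjusted p = 0.088), -0.27 (adjusted p = 0.40) and 0.00 (adjusted p = 0.99).

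For the later steps maoc-1, dhs-28 (193919_at), kat-1, ech-1.2 and ech-4 shared 1 order of strain means, with the single mutants highest and the double mutant lowest. This order was not counted over all probe sets. Of 11 ech probe sets, 4 were called lower and 3 higher in the double mutant than in nth-1 (all probe sets 15% and 21.7%). Against xpa-1 4 were lower and 1 higher (all probe sets 15.5% and 19.4%). maoc-1, the peroxisomal hydratase of side-chain shortening, read 11.13 and 11.33 in N2, 11.94, 11.99 and 11.89 in nth-1, 11.50 and 11.91 in xpa-1, and 10.88 and 10.68 in nth-1;xpa-1. Its differences from N2 were 0.71 (limma adjusted p = 0.026), 0.48 (adjusted p = 0.11) and -0.45 (adjusted p = 0.14). dhs-28 (193919_at), the dehydrogenase that follows maoc-1 in that pathway, read 10.21 and 10.44 in N2, 11.20, 11 and 11.34 in nth-1, 10.63 and 11.28 in xpa-1, and 9.59 and 9.64 in the double mutant. Here too only the rise in nth-1 passed (0.86, adjusted p = 0.043), and with BioC as a block neither maoc-1 (adjusted p = 0.74) nor dhs-28 (adjusted p = 0.88) passed in nth-1. The other dhs-28 probe set (171926_x_at), whose probes can bind other transcripts, gave 0.32, 0.02 and -0.65 with no call.

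For kat-1, a mitochondrial thiolase, the values were 10.65 and 10.67 in N2, 11.08, 10.81 and 10.96 in nth-1, 11.14 and 11.55 in xpa-1, and 10.46 and 10.37 in nth-1;xpa-1. All single mutant arrays lay above N2 and both double mutant arrays below it, though no difference from N2 passed (0.29, 0.69 and -0.24, limma adjusted p = 0.32, 0.052 and 0.46), and that in nth-1 was -0.12 with BioC as a block. ech-1.2, the alpha subunit of the mitochondrial trifunctional protein, differed by 0.42, 0.56 and -0.41 with no call. ech-4, an enoyl-CoA isomerase gene, rose in xpa-1 (0.85, adjusted p = 0.038) and fell in the double mutant (-0.88, adjusted p = 0.04), from 10.31 and 10.53 in N2 to 11.10 and 11.45 and to 9.59 and 9.50. The rise in xpa-1 did not pass under quantile normalization (adjusted p = 0.059) or with BioC as a block (adjusted p = 0.17). ech-3 had the opposite order, with 9.07 and 8.87 in N2, 8.17, 8.27 and 8.17 in nth-1, 7.73 and 8.14 in xpa-1, and 8.85 and 8.75 in nth-1;xpa-1. It fell in both single mutants (-0.77, adjusted p = 0.034, and -1.03, adjusted p = 0.017), and the call in nth-1 ended with BioC as a block (adjusted p = 0.20). ech-9, picked after its values were seen, spread over 6.47 to 9.44 in nth-1 and stood at 5.28 in both double mutant arrays against 8.51 and 8.75 in N2, without passing.

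**Figure D3:**
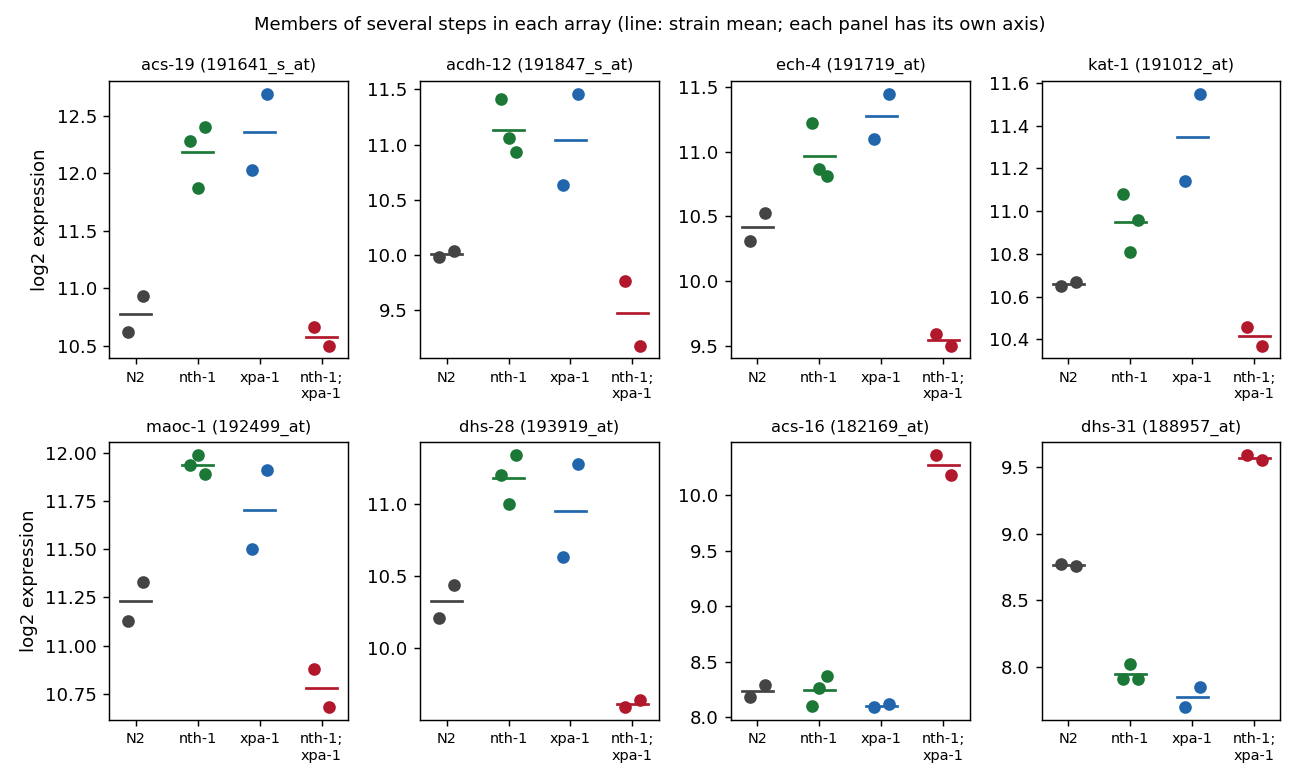
Log2 expression in each of the 9 arrays of 8 members from several steps, with a line at each strain's mean and a separate axis per panel. acs-19, acdh-12, ech-4, kat-1, maoc-1 and dhs-28 have their highest means in the single mutants and their lowest in nth-1;xpa-1, whereas acs-16 and dhs-31 are highest in nth-1;xpa-1 (10.18 to 10.36 and 9.55 to 9.59).

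Among the dhs genes, dhs-23 made the largest rise in the single mutants. It read 6.03 and 6.24 in N2, 8.08, 8.46 and 7.07 in nth-1, 8.23 and 8.15 in xpa-1, and 5.94 and 5.88 in the double mutant, with differences of 1.74 (limma adjusted p = 0.016), 2.06 (adjusted p = 0.013) and -0.23 (adjusted p = 0.75). Both rises lost their call with BioC as a block (adjusted p = 0.39 and 0.068), and that in nth-1 also with own strains only (adjusted p = 0.07). dhs-31 went the other way, from 8.77 and 8.76 in N2 to 7.91, 8.02 and 7.91 in nth-1 and 7.70 and 7.85 in xpa-1, and up to 9.59 and 9.55 in nth-1;xpa-1. Its differences of -0.82 (adjusted p = 0.015), -0.99 (adjusted p = 0.011) and 0.81 (adjusted p = 0.027) all passed, but each was lost without either N2 array, and that in nth-1 with BioC as a block (adjusted p = 0.27). Smaller rises were called for dhs-17 in both single mutants (0.62 and 0.66) and for dhs-24 and dhs-25 in nth-1 (0.61 and 0.78). None of these held with BioC as a block (adjusted p = 0.47 and 0.12 for dhs-17, 0.59 for dhs-24 and 0.42 for dhs-25).

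In the double mutant dhs-20 (-1.91, limma adjusted p = 0.0033), dhs-4 (175398_s_at, -1.41, adjusted p = 0.033), dhs-2 (-1.28, adjusted p = 0.015) and both probe sets of dhs-3 fell. dhs-3, which encodes a lipid droplet protein, read 10.84 and 11.05 in N2 and 9.93 and 9.80 in the double mutant (193240_s_at, difference -1.08, adjusted p = 0.0097), and its second probe set gave -1.03 (adjusted p = 0.018). dhs-2 had risen in xpa-1 (0.98, adjusted p = 0.032), a call that ended, as for ech-4, under quantile normalization (adjusted p = 0.065) and with BioC as a block (adjusted p = 0.12).

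The direct comparison of the double with the single mutants gave larger counts than those with N2. Against nth-1, 31 of 100 members were lower and 11 higher, where 15% of all probe sets were lower and 21.7% higher. Against xpa-1, 34 were lower and 8 higher (all probe sets 15.5% and 19.4%). The member medians were -0.37 and -0.33, whereas the medians of all probe sets were 0.13 and 0.11. In all, 29 members were below both single mutants (12.3% of all probe sets) and 7 above both (16.6% of all probe sets). These comparisons share the double mutant arrays, and with BioC as a block 3 members were higher and 7 lower than in nth-1, and 7 higher and 23 lower than in xpa-1. The block ended 34 of the 42 calls against nth-1 and 15 of the 42 against xpa-1, the latter with xpa-1 replicate 1 alone.

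The 29 probe sets come from each step of the pathway. They measure acs-2, acs-7, acs-11, acs-14, acs-19 and acs-22 for activation, cpt-1, cpt-3 and cpt-5 for transport, acdh-3, acdh-12, acdh-13 and acox-1.5 for oxidation, ech-1.2, ech-2, ech-8 and maoc-1 for hydration, the isomerase gene ech-4, dhs-28 and kat-1, and also dhs-2, dhs-3, dhs-6, dhs-20, dhs-23 and dhs-30. Largest was acs-2 (192195_at), at -2.67 (limma adjusted p = 0.00019) against nth-1 and -3.19 (adjusted p = 0.00018) against xpa-1. dhs-20 was lower by -2.50 and -2.21, cpt-5 by -1.91 and -2.06, and acs-19 by -1.60 and -1.78. The peroxisomal genes maoc-1 (-1.16 and -0.93) and dhs-28 (193919_at, -1.56 and -1.34) and the thiolase kat-1 (-0.54 and -0.93) were lower as well. Under the BioC block 6 of the 29 passed against both single mutants, those of acs-2 (192195_at), cpt-5, dhs-2, dhs-20 and both of dhs-3. The calls against nth-1 ended for acs-19 (adjusted p = 0.15), maoc-1 (adjusted p = 0.11), dhs-28 (adjusted p = 0.12) and kat-1 (-0.12, adjusted p = 0.82), the last also under quantile normalization, whereas those against xpa-1 held. The 7 above both were acs-16, acs-25, acdh-4, ech-3, dhs-14, dhs-15 and dhs-31, of which acs-16 and dhs-31 passed against both with the block. Those of acdh-4 and ech-3 over nth-1 did not pass under quantile normalization either.

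**Figure D4:**
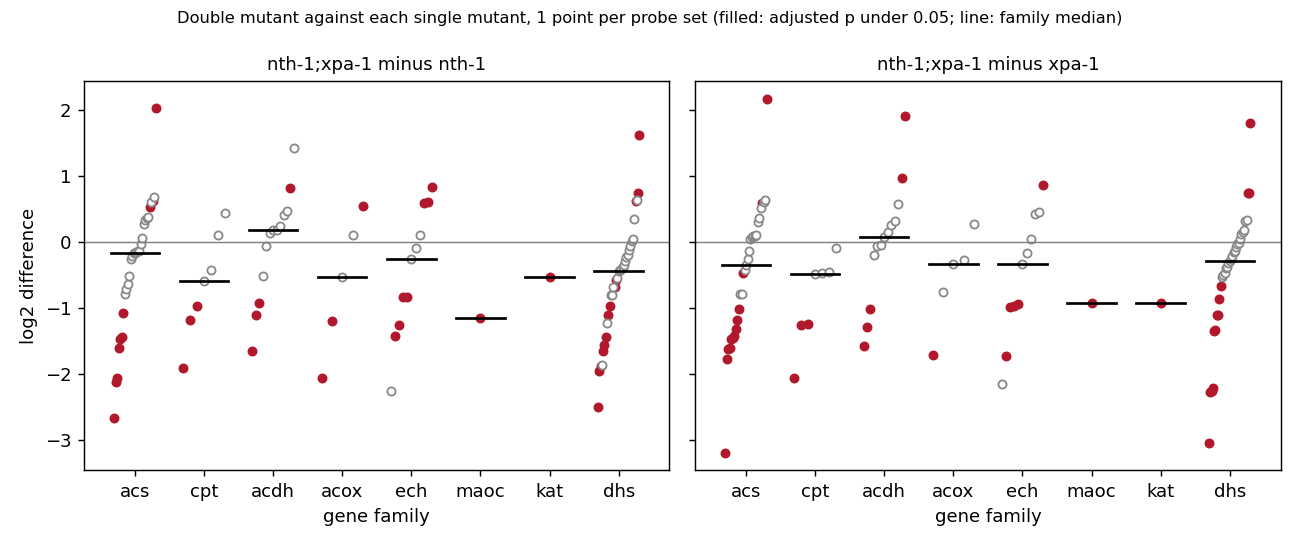
Log2 difference of nth-1;xpa-1 from nth-1 and from xpa-1, 1 point per member probe set grouped by gene family, filled where limma's adjusted p is under 0.05, with a line at the family median. Filled points lie mostly below 0 in the acs, cpt and dhs families, and maoc-1 (-1.16 and -0.93) and kat-1 (-0.54 and -0.93) are the only members of theirs.

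The interaction of the mutations, which is the change in the double mutant minus the sum of the changes in the single mutants, was below 0 for 32 members and above 0 for 11, where 16.4% and 23% of all probe sets were. The member median was -0.46 and that of all probe sets 0.17. Values for acs-2 were -3.85 (standard error 0.26, limma adjusted p = 6.5e-05) and -7.91 (0.31, adjusted p = 1.3e-05), and for cpt-4 2.14 (0.45, adjusted p = 0.0059) and 1.01 (adjusted p = 0.052). Under the BioC block 6 members were called on each side and 34 of the 43 calls ended. Calls over all probe sets also became fewer, from 5193 above 0 and 3695 below to 991 and 438. More of these were thus above 0 than below, unlike the members. The median with the block was -0.20 over the members and 0.12 over all probe sets, so the members still lay lower. acs-2 and the brighter cpt-4 probe set passed with the block (adjusted p = 0.015, 0.0043 and 0.0085).

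Genes of the pathway outside these families were taken from lists, whose counts stand beside 3.06% up and 6.98% down over all probe sets in nth-1, 3.89% and 6.65% in xpa-1, and 4.24% and 4.4% in the double mutant. Of 16 measured genes of mitochondrial and peroxisomal beta-oxidation, 2 rose in nth-1, 1 in xpa-1 and none in the double mutant (1 at an unadjusted p under 0.05), where 2 fell. hacd-1, a hydroxyacyl-CoA dehydrogenase gene, rose by 1.51 (limma adjusted p = 0.0052) and 1.53 (adjusted p = 0.0074) in the single mutants and differed by 0.30 (adjusted p = 0.47) in nth-1;xpa-1. daf-22, the thiolase that acts after dhs-28, rose by 1.03 (adjusted p = 0.02) in nth-1. Both pmp-5 (-1.69) and B0272.3 (-0.98) fell in the double mutant. Against each single mutant 10 of the 16 were lower in the double mutant, with medians of -0.81 and -0.74, and 2 were higher than in xpa-1, where 15% and 15.5% of all probe sets were lower and their medians were 0.13 and 0.11. Under the BioC block 2 of the 16 were lower than in nth-1 and 5 than in xpa-1, and in nth-1 the rises of hacd-1 (adjusted p = 0.39) and daf-22 (adjusted p = 0.68) lost their call.

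Some genes that use the products of beta-oxidation were raised in the single mutants. A list headed glyoxylate cycle and ketone use held 7 genes, icl-1, hmgs-1, sucg-1, mdh-1, mdh-2, cts-1 and aco-2. Several of these, such as cts-1, are enzymes of the citric acid cycle. Of the 7 genes, 3 rose in nth-1 (icl-1, cts-1 and aco-2) and 4 in xpa-1 (the same and mdh-2). None rose in the double mutant (0 also at an unadjusted p under 0.05). The double mutant was below nth-1 in 5 and below xpa-1 in 6 (all probe sets 15% and 15.5%). The median differences of the 7 genes from N2 were 0.32, 0.69 and -0.03, beside -0.05, -0.04 and 0.05 over all probe sets. icl-1, the bifunctional glyoxylate cycle enzyme, rose on all of its 3 probe sets by 1.04 to 1.77 in nth-1 and by 1.63 to 2.48 in xpa-1, and cts-1, citrate synthase, rose by 0.82 and 1.27. Of 17 genes for making and desaturating fatty acids, 5 rose in nth-1 and 7 in xpa-1 (medians 0.26 and 0.45), elo-2 by 1.19 and 1.11 and let-767 by 0.91 and 0.95. In the double mutant elo-2 rose (0.97) and fat-5 (-2.28) and acly-2 (-0.66) fell. When BioC was a block, 0 genes of either list rose in nth-1 and 2 of each rose in xpa-1, cts-1 not among them. Genes of the first list were then below nth-1 in 0 cases and below xpa-1 in 6. The fall of acly-2 in the double mutant lost its call (limma adjusted p = 0.057).

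Among 12 lipases and factors of fat release, lipl-3, a lysosomal lipase induced by fasting, rose by 3.26 (limma adjusted p = 0.00017) in nth-1 and 3.04 (adjusted p = 0.00057) in xpa-1, with -0.56 (adjusted p = 0.20) in the double mutant. The medians of the 12 were 0.00, 0.20 and -0.43, beside -0.05, -0.04 and 0.05 over all probe sets. lipl-2 fell in all mutants (-1.77, -1.74 and -0.90), fil-1 in the single mutants (-1.73 and -2.11), and lipl-1 in the double mutant (-2.17). All of these calls held with BioC as a block, which cannot check those of the double mutant. Of 11 fasting response genes outside the families, some of them also in other lists, 2 (lipl-3 and icl-1) rose and 1 (fil-1) fell in each single mutant, and 1 (fat-5) fell in the double mutant. Of 15 fatty acid and acyl-CoA binding proteins, 1 rose (lbp-6, 0.78) and 1 fell (lbp-2, -0.85) in nth-1, none rose and 3 fell in xpa-1, and 1 rose (acbp-4, 0.61) and 1 fell (lbp-6, -0.80) in the double mutant. Of 11 peroxisome biogenesis genes, prx-11 rose in nth-1 (0.56) and prx-14 fell in the double mutant (-0.78). None of 13 regulators of fat use, nhr-49 among them, passed against N2 in limma (at an unadjusted p under 0.05, 2 were up in nth-1, 1 was up in xpa-1, and 2 were up and 1 down in the double mutant), while nhr-13 (-0.95 and -0.96) and nhr-68 (-2.21 and -1.26) were lower and nhr-10 (0.77 and 0.91) higher in the double mutant than in the single mutants. The BioC block ended the calls of icl-1, lbp-6, lbp-2 and prx-11 in nth-1, of lbp-1 and acbp-1 in xpa-1 and of acbp-4 in the double mutant. It also ended those of all 3 nhr genes against nth-1 and that of nhr-68 against xpa-1.

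Markers of cell types moved with some of these comparisons. The summed level of 8 oocyte and germ line markers was 14.3 to 14.37 in N2, 14.14 to 14.62 in nth-1, 15.11 to 15.16 in xpa-1 and 13.55 to 13.63 in nth-1;xpa-1, with 8 of 8 lower in the double mutant than in xpa-1 and 6 of 8 lower than in nth-1 (all probe sets 15.5% and 15%), which were 8 and 1 with BioC as a block. The 4 body wall muscle markers summed to 13.03 to 13.18 in N2, 12.61 to 13.34 in nth-1, 13.13 to 13.83 in xpa-1 and 14.05 to 14.07 in the double mutant. The 8 markers of the intestine, where much of the fat is stored, summed to 14.98 to 15.1 in N2 and 14.49 to 14.83 in nth-1. They summed to 14.57 to 15.15 in xpa-1 and 14.84 to 14.91 in the double mutant. All nth-1 and double mutant arrays thus lay below N2. Among the intestine markers, pept-1 was up in nth-1 (1.85) and xpa-1 (1.66), asp-1 down in nth-1 (limma adjusted p = 0.017), and ges-1 down in the double mutant (-1.38). The calls of pept-1 and asp-1 ended with BioC as a block. Of the 6 sperm markers 1 (spe-11, 1.79) rose in the double mutant, and of 6 hypodermis and 6 neuron markers none passed against N2 in limma (1 hypodermis marker in nth-1 at an unadjusted p under 0.05). The hypodermis markers summed to 13.07 to 13.09 in N2, 11.86 to 12.96 in nth-1, 11.79 to 12.73 in xpa-1 and 13.19 to 13.27 in the double mutant. No marker list had a summed level near 0 in any strain. The part of cell composition in the member differences was not tested.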

How the data were processed

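Expression was measured in 9 Affymetrix C. elegans arrays of 4 strains. The authors used dChip (version not given in the sources used here) for invariant-set normalization and for model-based expression from perfect-match probes, and deposited log2 values. Raw array files were not used here. Differences between strains were estimated in R 4.3.3 with limma 3.58.1 (lmFit, eBayes with a variance trend), all 9 arrays entering the same model of strain means, which leaves 5 residual degrees of freedom. Adjustment was Benjamini-Hochberg over 22548 probe sets, after leaving out 77 controls, with a threshold of 0.05. Folds are ratios of arithmetic means of unlogged values.

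Comparisons of acs-2 and cpt-4 with other probe sets used differences within arrays, fitted in limma's lmFit without shared variances, because every difference holds the spread of the same reference, and adjusted over all other probe sets. Probe sets with 1 gene symbol stand for genes, and for listed genes the brightest one. Gene symbols come from the platform table, and gene IDs of all 100 members were found in RefSeq. Named genes are acs-2 and cpt-4, up to 8 called members per direction and comparison with N2, 1 gene per oxidation step, and called members of the lists. Members and lists were chosen with earlier results of these data known. Replicates are read as separate cultures, and p-values measure only the spread between arrays. The pipeline was tested on simulated data. Alternatives were quantile normalization, 32 added before the logarithm, no variance trend, a filter at the 40th percentile, blocks by BioC or by replicate number, own strains only, a ratio of at least 1.8, and leaving out each array. Figures were drawn with matplotlib.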

Additional observations from a re-analysis of the deposited data

Results flagged for a closer look

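The effect of losing nth-1 was compared between the N2 and the xpa-1 background, and for the 25 named probe sets below it differed in limma's interaction test. The values are the log2 change in xpa-1 minus that in N2. When BioC was a block, 17 of the 25 no longer passed. Below 0 were the following values, for which the loss of nth-1 gave a higher mean in N2 and a lower one in xpa-1, though both of these changes passed only for acs-2, dhs-23, acs-19, acs-11, acdh-12, maoc-1 and dhs-28 (193919_at). For acs-2 the difference was -7.91 (192195_at, 4.72 against -3.19) and -3.85 (174675_at, 2.40 against -1.46). It was -4.01 for dhs-23, -3.19 for acs-19, -2.76 for acs-11 and -2.69 for acdh-12. For dhs-2, dhs-20, acs-22, ech-4 and acs-7 it was -2.87, -2.80, -2.30, -2.28 and -2.10. For the peroxisomal genes maoc-1 and dhs-28 it was -1.64, -2.20 (193919_at) and -0.98 (171926_x_at), and for kat-1 and ech-1.2 -1.22 and -1.39. For dhs-17 it was -1.01, and for cpt-1, cpt-3 and cpt-5 -1.46, -1.44 and -2.16. Of these, acs-2, dhs-2 and dhs-20 passed with the block. For the others the adjusted p with it ran from 0.052 for acs-19 to 0.85 for cpt-1, and cpt-3 turned to 0.20 (adjusted p = 0.83).

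The difference was above 0 for dhs-31 (2.61), acs-16 (2.16), cpt-4 (173238_s_at, 2.14), ech-3 (1.63) and acox-1.1 (0.80), and all but acox-1.1 (adjusted p = 0.49) passed with the block. cpt-4 fell by 2.24 on the log2 scale with the loss of nth-1 in N2 and differed by -0.09 in xpa-1. The adjusted p ran from 1.3e-05 for acs-2 to 0.037 for acox-1.1. The arrays of N2 enter each of these values. No strain has enough arrays for a test of single outlying arrays.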

How the results depend on the processing

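The 131 differences of named probe sets include some that were not called. Quantile normalization kept the result (the sign, and whether it passed) of 123, adding 32 before the logarithm that of 131, and BioC as a block that of 71. Without an N2 array 88 and 91 kept it, and without a double mutant array 91 and 87. An arm with 1 array left is assumed to vary like the other strains. Of the named calls alone, the BioC block held 4 of 14 in nth-1 and 6 of 11 in xpa-1 against N2. It held 15 of 15 in the double mutant against N2, whose differences it cannot change. Against nth-1 it held 6 of 25 in the double mutant, against xpa-1 19 of 24, and in the interaction 8 of 25. The count of members called in nth-1 was 15 in the report, 4 with BioC as a block, 9 with own strains only, and 2 to 39 over the arrays left out. In xpa-1 it was 11, with 20 for own strains only, 20 for a ratio of at least 1.8, and 2 to 32. In the double mutant it was 17, with 57 for own strains only, and 3 to 33. With the replicate block (a shared number, which pairs nothing in the labels, with r of -0.262 to 0.104 between same-numbered arrays) the counts were 30, 27 and 30, and 31 in the double mutant with crossed numbers, an alternative chosen after seeing the data. Against nth-1 the double mutant gave 42, with 10 with BioC as a block and 21 to 60. Against xpa-1 it gave 42, and 17 to 51. The interaction gave 43, with 12 with BioC as a block and 30 to 58. The lowest counts came without N2 replicate 1 or a double mutant array and the highest without nth-1 replicate 3.

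The probe sets from which acs-2 differed numbered 24 to 27 in nth-1, 24 to 27 in xpa-1 and 10 to 23 in the double mutant when arrays were left out, and those from which cpt-4 differed 4 to 5, 0 to 5 and 0 to 4. Signs turned for acox-1.1 in the double mutant (0.047 under quantile normalization, 0.10 without nth-1;xpa-1 replicate 1, 0.12 without N2 replicate 1), for cpt-3 in the interaction (0.20 with BioC as a block), for kat-1 in nth-1 (-0.12 with that block), for dhs-28 (171926_x_at) in nth-1 (-0.10 with that block), and for the same probe set in xpa-1 (-0.073 under quantile normalization, -0.185 with that block, and -0.185 to 0.225 over the arrays left out, below 0 without xpa-1 replicate 2 or N2 replicate 1). The cause was not tested. Quantile normalization moved the median of all probe sets in the double mutant from 0.13 to 0.01 against nth-1, from 0.11 to 0.00 against xpa-1 and from 0.17 to 0.00 in the interaction. It changed the share of calls that are up against nth-1 from 26.2% to 13%.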

Other observations

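The probe sets whose log2 values followed those of acs-2 (174675_at) most closely over the 9 arrays were tni-1 (Pearson r = 0.971), adh-1 (0.97), T16G1.4 (0.968), acer-1 (0.967) and col-107 (0.966). adh-1, an alcohol dehydrogenase gene, stood at 11.46 to 11.53 in N2, 13.11 to 13.72 in nth-1, 12.97 to 13.81 in xpa-1 and 12.34 to 12.49 in the double mutant. tni-1, a troponin I gene of muscle, stood at 8.49 to 8.5, 9.71 to 10.22, 10.04 to 10.05 and 9.39 to 9.58 in the same order. For cpt-4 (173238_s_at) they were T21H3.1 (0.955), asp-5 (0.946), clec-53 (0.944), clec-110 (0.943) and H20E11.2 (0.94). clec-53, a C-type lectin gene, differed from N2 by -1.62, -1.36 and -1.71. These are the highest of all correlations with each gene over arrays that share their strains, and are given as a description.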
